A study of Mus musculus with 12 samples.

Results

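The keratins and basal cell genes described here are 10 genes, chosen by symbol from the 24421 gene symbols of the count table: the type II keratins Krt5, Krt7 and Krt8, the type I keratins Krt14, Krt15, Krt17, Krt18 and Krt19, the transcription factor gene Trp63 and the receptor gene Ngfr. They were followed in 12 bulk RNA-seq libraries of whole embryonic lungs from wild-type CD-1 mice, taken from the embryo at embryonic day 12.5 and kept as explants in Matrigel at an air-liquid interface. The compression group (4 libraries) held lungs surrounded for 2 days by a 20% PEG-HCC hydrogel that a two-photon laser had crosslinked into a stiff barrier. The control group (4 libraries) held lungs cultured for the same 2 days with the same polymer left uncrosslinked. The Day 0 group (4 libraries) held lungs at the start of that treatment. Compression and control therefore differ by crosslinking and laser exposure as well as by restricted growth, and these cannot be told apart. Whether each library was made from another animal is not stated in the labels, so p-values measure the spread between these samples, which may be technical. All lungs were wild type, so no lung with a hernia or another malformation is among them.

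Keratins build the intermediate filaments of epithelial cells. A filament needs a type II keratin paired with a type I keratin. Krt8 and Krt18 are the pair of simple, single-layered epithelium, and Krt7 and Krt19 accompany them in ducts and airways. Krt5 and Krt14 are the pair of basal cells, the stem cells that lie on the basement membrane of stratified epithelium and of the adult trachea. Krt15 is another basal keratin of stratified epithelium, and Krt17 is known from basal cells and from injured epithelium. Trp63 encodes p63, the transcription factor that basal cells need. Ngfr encodes the low-affinity neurotrophin receptor p75, a surface marker of airway basal cells that neural crest cells, glia and neurons also carry. Mesothelium, the outer lining of the lung, makes simple keratins too.

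Krt8 lies on chromosome 15 of GRCm38 (chr15:101996698-102004482, minus strand) and Krt18 beside it (chr15:102028180-102032027, plus strand). They are 23697 bases apart, point away from each other and have 0 annotated protein-coding genes between them. Krt7 (chr15:101411043-101430313, plus strand) and Krt5 (chr15:101707070-101712898, minus strand) belong to the same type II cluster. The type I genes Krt14 (chr11:100203162-100207548), Krt15 (chr11:100131758-100135928), Krt17 (chr11:100256217-100261029) and Krt19 (chr11:100140810-100148665) all lie on the minus strand of chromosome 11. Ngfr (chr11:95568818-95587735, minus strand) is on the same chromosome outside that cluster, and Trp63 (chr16:25683763-25892102, plus strand) is on chromosome 16.

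The 250 bases upstream of the RefSeq starts of Krt8, Krt18 and Krt7 are shown because the first 2 genes had similar counts in every library and the third changed more than they did. RefSeq and the annotation that gave the spans above place these starts differently. The Krt7 window lies wholly inside the Krt7 span, and the Krt8 and Krt18 windows lie partly inside the spans of their genes. The sequences are from RefSeq on GRCm38.p6, for Krt8 from chr15:102004343-102004592 on the minus strand, for Krt18 from chr15:102027966-102028215 on the plus strand and for Krt7 from chr15:101412153-101412402 on the plus strand. Capitals mark matches to the GC box GGGCGG on either strand, so the reverse complement CCGCCC is also in capitals.
Krt8: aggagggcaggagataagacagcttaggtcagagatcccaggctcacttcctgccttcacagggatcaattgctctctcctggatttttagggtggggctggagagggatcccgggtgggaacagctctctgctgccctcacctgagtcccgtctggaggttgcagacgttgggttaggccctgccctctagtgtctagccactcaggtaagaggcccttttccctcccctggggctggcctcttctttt
Krt18: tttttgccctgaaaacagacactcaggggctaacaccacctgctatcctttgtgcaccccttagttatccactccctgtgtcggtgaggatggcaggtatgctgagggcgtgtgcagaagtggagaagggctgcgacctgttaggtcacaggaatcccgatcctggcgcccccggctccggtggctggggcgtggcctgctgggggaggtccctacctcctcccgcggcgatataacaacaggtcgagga
Krt7: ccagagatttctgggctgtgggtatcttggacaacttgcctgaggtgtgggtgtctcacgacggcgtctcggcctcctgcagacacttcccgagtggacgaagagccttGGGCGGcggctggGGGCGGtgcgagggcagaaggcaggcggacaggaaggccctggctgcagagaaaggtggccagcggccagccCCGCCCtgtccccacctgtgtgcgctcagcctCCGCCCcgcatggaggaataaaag
The Krt7 window held 4 GC boxes, whose first bases lie at -141, -128, -56 and -24 relative to the start. The Ngfr window, which is not shown, also held 4, with first bases at -114, -72, -63 and -16. Ngfr did not pass the test in controls against Day 0. No GC box, TATA box (TATAAA), AP-1 site (TGANTCA) or CCAAT box (CCAAT), searched on both strands, was matched in the Krt8 or Krt18 window. The windows of Krt5 and Krt14, not shown, held none of them either. For Krt15, Krt17, Krt19 and Trp63 there was no window to search. Among 32851 mouse promoter windows of the same length, 32.7% held a GC box, 12.4% a TATA box, 6.75% an AP-1 site and 33.8% a CCAAT box. These matches describe letters and say nothing of what binds there.

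The libraries held 25680019 to 31739019 counts under compression, 15452117 to 30805341 in controls and 13979871 to 33249761 at Day 0. Levels are given as CPM, the count as a share of the library size on the usual CPM scale, with that size scaled with edgeR's TMM factors. Among pairs of libraries within a group, compression replicates 2 and 3 differed least (mean chi-square per gene 4.09, against 7.51 or more). Their sample descriptions share 1 number and differ only in the letters A and B. Whether they came from 1 lung or pool is not stated, so the compression group may hold fewer than 4 independent samples. Results that rest on these 2 libraries are therefore also given with both summed into 1 library. In control replicate 4 a list of 8 liver genes summed to 1580 CPM, against 0.418 to 17.5 CPM in the other 11 libraries. Krt8 and Krt18 are also keratins of liver cells, and in that library they stood at 146 and 147 CPM, inside the range of the other 3 controls. The 15 epithelial markers checked, including the lung regulator Nkx2-1, had counts in every group. Of the 9 oesophagus and skin markers in the table, only Krtdap was at 0 in all groups. The others, Krt4 among them, had counts in every group. The 9 oesophagus and skin markers in the table summed to 7.87 to 9.79 CPM under compression, 8.04 to 9.51 CPM in controls and 6.74 to 7.91 CPM at Day 0.

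The simple keratins dominated. Per kilobase of the principal annotated transcript, Krt18 stood highest under compression at 113 CPM per kb, followed by Krt8 at 84.1, Krt19 at 75.3 and Krt7 at 27.1 CPM per kb. Krt15 followed at 5.42, Ngfr at 3.36, Trp63 at 0.824, Krt17 at 0.629, Krt14 at 0.114 and Krt5 at 0.0496 CPM per kb. The order was the same in controls, where Krt18 stood at 104, Krt8 at 79.2, Krt19 at 63.2, Krt7 at 27.8 and Krt15 at 5.70 CPM per kb. At Day 0 Krt18 stood at 58.2 and Krt8 at 41.3 CPM per kb, and only Ngfr, at 2.39 CPM per kb, and Krt15, at 2.30 CPM per kb, had changed places. Several neighbours in this order overlapped between libraries: Krt8 with Krt19 and Trp63 with Krt17 under compression, Krt15 with Ngfr in controls, and Ngfr with Krt15, Trp63 with Krt17 and Krt17 with Krt14 at Day 0. In every group the 4 simple keratins thus stood above the basal genes, with the basal pair Krt5 and Krt14 at the bottom.

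**Figure D1:**
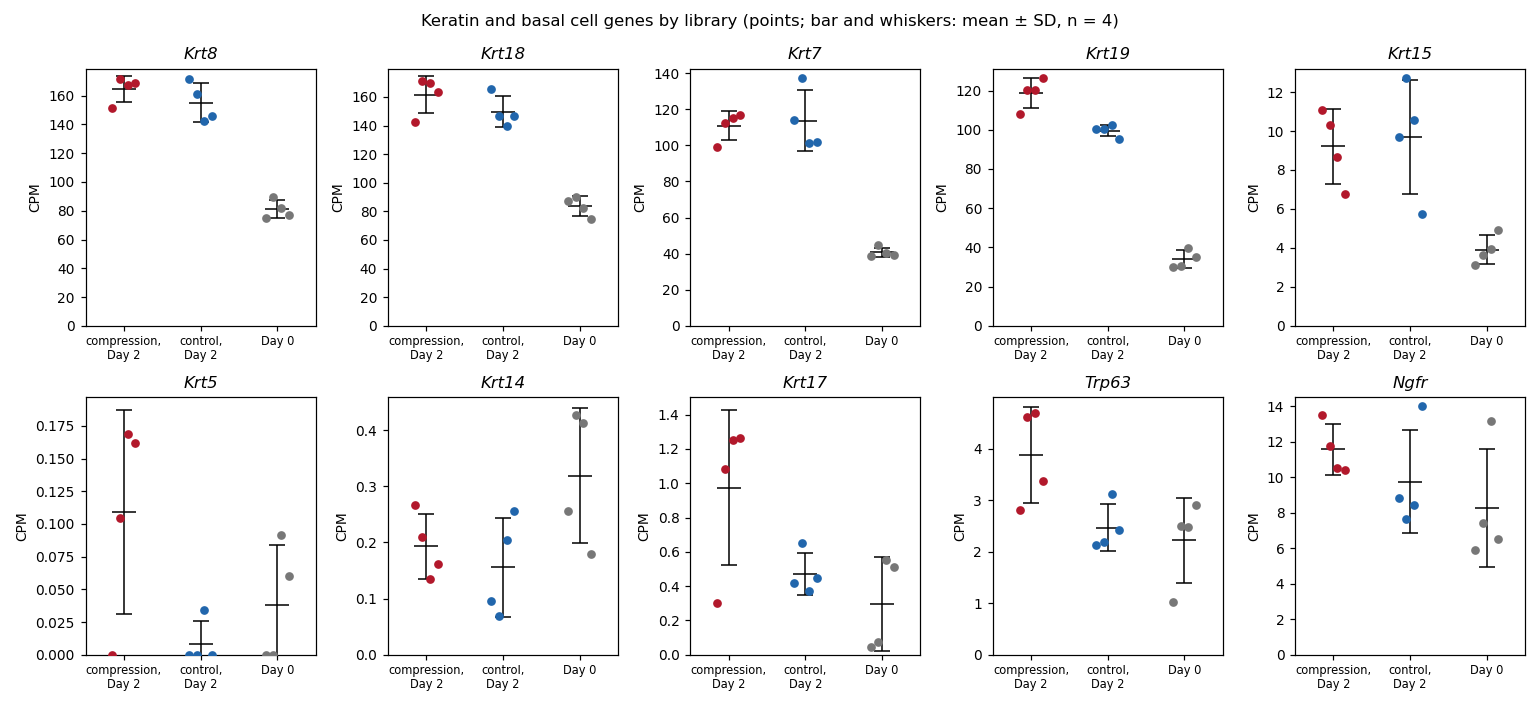
Level of each gene in CPM for compression, control and Day 0, in 1 panel per gene with its own linear axis from 0. Each library is 1 point, and bar and whiskers give the group mean ± SD. Krt8, Krt18, Krt7 and Krt19 lie between 99.3 and 172 CPM under compression and at or below 90.2 CPM at Day 0, whereas Krt5 and Krt14 stay near the floor of detection in all 3 groups.

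Over 2 days of culture without compression, the simple keratins Krt7, Krt8, Krt18 and Krt19 and the basal keratin Krt15 rose, and Trp63, Ngfr and Krt17 did not pass the test. This comparison asks what happens to the genes as unrestricted lungs grow in culture. Of the 10 genes, 8 had enough counts to be tested, and 5 of these 8 rose and 0 fell by edgeR's quasi-likelihood test (adjusted p below 0.05 over 15246 genes). Among all genes tested, 40.2% passed, 22.6% rising and 17.6% falling. The same 5 had control levels that did not overlap with Day 0, as did 20.4% of all genes in that direction. In bulk samples, fewer cells of a type and less RNA per cell cannot be told apart, and this holds for every level given here.

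Krt19, the smallest keratin and a partner of Krt8 in ductal epithelium, had 100.5, 100.2, 102 and 95.5 CPM in controls, against 29.9, 30.7, 39.8 and 35.0 CPM at Day 0. Every control library was above every Day 0 library, by a log2 fold change of 1.55 (SE 0.09, edgeR adjusted p = 4.52e-08). Krt7, its usual companion, had 114, 138, 101 and 102 CPM in controls, against 38.9, 44.6, 40.1 and 39.3 CPM at Day 0. The groups were again apart, with a log2 fold change of 1.48 (SE 0.10, edgeR adjusted p = 1.82e-07).

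Krt8 had 171, 161, 142 and 146 CPM in controls, against 75.3, 89.3, 82.0 and 77.1 CPM at Day 0, without overlap. Its log2 fold change was 0.94 (SE 0.07, edgeR adjusted p = 1.04e-06). Krt18, its filament partner, had 166, 147, 139.8 and 147 CPM in controls, against 87.5, 90.2, 82.2 and 74.8 CPM at Day 0. It rose by a log2 fold change of 0.84 (SE 0.08, edgeR adjusted p = 3.53e-06), with every control above every Day 0 library. A share of 29.7% of the 50-base words of the Krt8 transcript also occurs in other annotated transcripts, mainly in its pseudogene Krt8-ps, and the sources used here do not say how such reads were assigned. For Krt19 that share was 0, for Krt18 0.720% and for Krt7 0.916%.

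Krt15 was the only basal keratin that rose in controls. It had 9.72, 12.7, 10.6 and 5.75 CPM in controls, against 3.12, 3.63, 3.94 and 4.91 CPM at Day 0. The lowest control, replicate 4, was close to the highest Day 0 library, but the groups did not overlap, and the log2 fold change was 1.31 (SE 0.23, edgeR adjusted p = 5.30e-04).

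The basal regulator Trp63 had 2.12, 2.20, 3.13 and 2.43 CPM in controls, against 1.03, 2.49, 2.48 and 2.91 CPM at Day 0. The groups overlapped and the log2 fold change of 0.15 (95% interval -0.47 to 0.76, edgeR adjusted p = 0.714) did not pass. Without Day 0 replicate 1, the lowest library, it was -0.12, and without control replicate 3 it was -0.0074. Ngfr had 8.85, 7.65, 8.46 and 14.05 CPM in controls, against 5.90, 7.40, 13.2 and 6.53 CPM at Day 0. In each group 1 library stood well above the other 3, and the log2 fold change of 0.23 (95% interval -0.30 to 0.76, edgeR adjusted p = 0.487) did not pass. Without control replicate 4, which also held the liver genes, it was -0.0019.

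Krt17 was counted 13, 19, 11 and 7 times in controls, against 1, 1, 12 and 17 times at Day 0. The Day 0 libraries split into 2 with a single count and 2 with more, so the log2 fold change of 0.57 (95% interval -0.73 to 1.87, edgeR adjusted p = 0.484) was poorly determined. Krt14 was counted 3, 2, 6 and 4 times in controls, against 6, 6, 9 and 6 times at Day 0. Summed and set against the library sizes scaled with the TMM factors, the control level was 0.489 of the Day 0 level (95% counting interval 0.242 to 0.952). Krt5 was counted 0, 0, 1 and 0 times in controls, against 0, 0, 2 and 2 times at Day 0, a ratio of 0.220 (0.00446 to 2.22). Such intervals cover counting error only, and neither Krt5 nor Krt14 passed the filter for the edgeR test. Of the 50-base words, 12.2% of those of Krt5 are shared, mainly with Krt6a, which had 0 counts in all 12 libraries, and 13.9% of those of Krt14, mainly with Krt16.

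The make-up of the keratin pool shifted over the 2 days. The 8 keratins together summed to 567 ± 35.9 CPM under compression, 529 ± 36.9 CPM in controls and 244 ± 12.6 CPM at Day 0 (SD, n = 4 each). Krt8 and Krt18 made up 57.6 ± 0.605% of that sum under compression, 57.7 ± 2.20% in controls and 67.5 ± 2.07% at Day 0 (SD, n = 4 each). Both Day 2 groups lay below every Day 0 library, since Krt7 and Krt19 changed more than Krt8 and Krt18. The basal keratins Krt5, Krt14, Krt15 and Krt17 together made up 1.86 ± 0.359% under compression, 1.94 ± 0.496% in controls and 1.87 ± 0.444% at Day 0 (SD, n = 4 each), most of it Krt15. That share of basal keratins differed by less than the spread between libraries.

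The filament partners kept a nearly constant ratio. Krt8 counts per Krt18 count were 1.02 ± 0.0332 under compression, 1.03 ± 0.0452 in controls and 0.969 ± 0.0750 at Day 0 (SD, n = 4 each). Krt7 counts per Krt8 count were 0.673 ± 0.0193 under compression, 0.733 ± 0.0830 in controls and 0.504 ± 0.0121 at Day 0 (SD, n = 4 each). Krt19 counts per Krt18 count were 0.735 ± 0.0341 under compression, 0.668 ± 0.0528 in controls and 0.409 ± 0.0782 at Day 0 (SD, n = 4 each). For both of these ratios every Day 2 library was above every Day 0 library, and for Krt8 per Krt18 the groups overlapped. Summed per kilobase, type II keratins were 0.574 ± 0.00688 of type I under compression, 0.616 ± 0.0393 in controls and 0.622 ± 0.0349 at Day 0 (SD, n = 4 each). Here every compressed library (0.567 to 0.581) was below every Day 0 library (0.586 to 0.667), and the controls (0.577 to 0.667) overlapped with both. No test was run on these ratios.

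**Figure D2:**
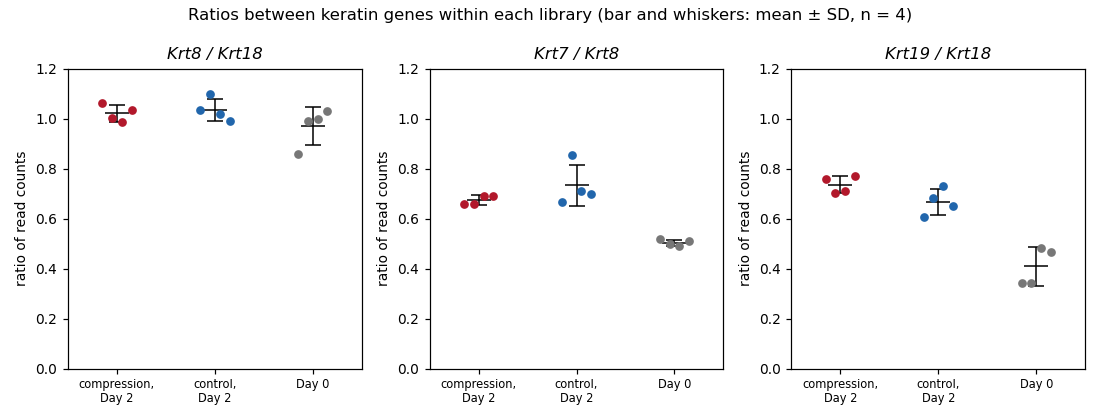
Ratios of keratin counts within each library, with 1 point per library for compression, control and Day 0. Krt8 per Krt18 stays near 1.02 in the Day 2 compression group and 0.969 at Day 0, whereas Krt7 per Krt8 and Krt19 per Krt18 are higher in all Day 2 libraries than at Day 0.

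Of the 15 epithelial markers, 14 rose and 0 fell in controls against Day 0, beside 22.6% rising and 17.6% falling among all genes tested. Their median log2 fold change was 0.59 beside 0.02 over all genes tested, so the keratins were also set against such genes. The comparator was the mean log2 CPM of Epcam, Cdh1, Cldn7, Esrp1 and Grhl2, which encode epithelial adhesion and junction proteins, a splicing regulator and a transcription factor of epithelium. All 5 rose in controls against Day 0, by log2 fold changes of 0.42 for Cldn7 to 1.02 for Cdh1 (edgeR adjusted p at most 0.00657). Relative to them, Krt19 was higher in controls than at Day 0 by 0.96 on the log2 scale, Krt7 by 0.87 and Krt8 by 0.34, each without overlap between groups. Krt15 was higher by 0.66 and Krt18 by 0.24, with overlap. Trp63 differed by -0.38 and Ngfr by -0.33, also with overlap. With 4 libraries against 4, a two-sided exact permutation test cannot go below p = 0.0286, the value reached by Krt19, Krt7 and Krt8. Adjusted over the 24 tests of this kind that value is 0.0857, so no relative difference passed. With this floor a test could pass only if many of the 24 reached it together. Not passing therefore does not show that the relative levels were equal.

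**Figure D3:**
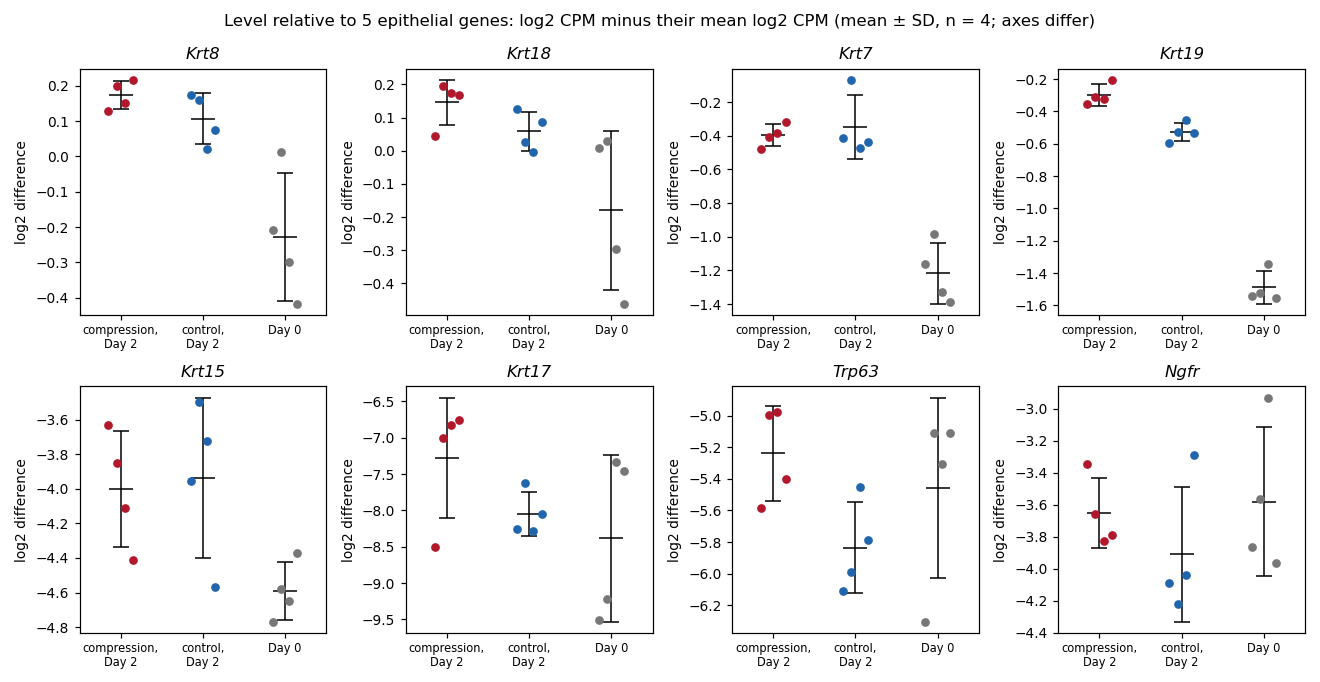
Level of each tested gene relative to the mean of 5 epithelial genes, as a log2 difference, with 1 point per library for compression, control and Day 0. Krt7 and Krt19 lie higher in both Day 2 groups than at Day 0, by 0.87 and 0.96 on the log2 scale for controls, and Trp63 and Ngfr overlap among all groups.

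Markers of the proximal airway, mesothelium and neural crest are given beside these results because such cells can also express some of the genes. The 8 proximal airway markers summed to 351 to 486 CPM under compression, 215 to 352 CPM in controls and 46.5 to 77.0 CPM at Day 0, where only the club cell gene Scgb1a1 was at 0. Of the 7 tested, 6 rose and 0 fell in controls against Day 0, beside 22.6% rising and 17.6% falling among all genes tested. The median log2 fold change of the 7 was 3.99. In compression against control 0 of these 7 passed, though all 7 values were positive, with a median of 0.77 beside 0.0039 over all genes tested. The club cell gene Cyp2f2 was at 1.04 and the ciliated cell gene Foxj1 at 0.99 there (edgeR adjusted p = 0.356 and 0.309), both with groups that did not overlap. The 9 of 10 listed mesothelial markers found in the table summed to 185 to 207 CPM under compression, 195 to 332 CPM in controls and 143 to 201 CPM at Day 0, with none at 0. In controls against Day 0, 5 of these 9 rose and 0 fell, beside the same shares of all genes. Their median log2 fold change was 0.47 beside 0.02 over all genes tested. Among those that rose was the surface protein gene Msln, by a log2 fold change of 4.09 (edgeR adjusted p = 9.78e-08). The 10 neural crest and neuronal markers summed to 152 to 197 CPM under compression, 153 to 201 CPM in controls and 134 to 167 CPM at Day 0, with none at 0. The part of these cells in the keratin, Trp63 and Ngfr levels was not tested.

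Compression against control asks what restricting growth changes at the same age. No gene of the set passed the test, and 0% of all genes tested did (0 of 15246 by edgeR, with 1839 genes, or 12.1%, at an unadjusted p below 0.05). Krt19 and Trp63 were the 2 of 8 tested genes under that unadjusted level, both higher under compression, as were 6.73% of all genes. By DESeq2 69 genes (0.453%) passed, none of them from the set. By limma-voom with quality weights, which gives discordant libraries less weight, 1958 genes (12.8%) passed, among them Krt19 at a log2 fold change of 0.26 (adjusted p = 0.0129), Trp63 at 0.74 (adjusted p = 0.0281), Krt18 at 0.21 (adjusted p = 0.0282) and Krt8 at 0.17 (adjusted p = 0.0491). Only Krt19 had groups that did not overlap, with compression above, as did 3.07% of all genes.

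Krt19 had 108, 120.4, 120.3 and 126 CPM under compression, against 100.5, 100.2, 102 and 95.5 CPM in controls. All 4 compressed libraries were above all 4 controls, by a log2 fold change of 0.25 (SE 0.08, 95% interval 0.08 to 0.43), with an unadjusted p of 0.00842 and an edgeR adjusted p of 0.354. Relative to the 5 epithelial genes the difference was 0.23 (two-sided exact permutation p = 0.0286, adjusted 0.0857), again without overlap. Without control replicate 4 the log2 fold change was 0.24 (edgeR adjusted p = 0.275), and with compression replicates 2 and 3 summed it was 0.25 (edgeR adjusted p = 0.640).

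Trp63 had 2.81, 4.62, 4.70 and 3.37 CPM under compression, against 2.12, 2.20, 3.13 and 2.43 CPM in controls. The lowest compressed library lay inside the control range, and the other 3 were above it. The log2 fold change was 0.65 (SE 0.28, 95% interval 0.05 to 1.25), with an unadjusted p of 0.0347 and an edgeR adjusted p of 0.390. With compression replicates 2 and 3, its 2 highest libraries, summed, it was 0.56 (edgeR unadjusted p = 0.0931, adjusted p = 0.642), so Trp63 was then no longer under the unadjusted level. The same held without some single libraries. Among compressed libraries, the edgeR unadjusted p was 0.0969 without replicate 2 and 0.101 without replicate 3. Among controls it was 0.0802 without replicate 1, 0.0763 without replicate 2 and 0.0551 without replicate 4. Trp63 stayed under the unadjusted level without compression replicate 1 (edgeR unadjusted p = 0.0183), compression replicate 4 (0.0379) or control replicate 3 (0.0223). It also did so without any 1 Day 0 library (edgeR unadjusted p 0.00782 to 0.0451). Krt17, with 8, 31, 37 and 39 counts under compression against 13, 19, 11 and 7 counts in controls, had a log2 fold change of 1.04 (95% interval -0.10 to 2.18, edgeR adjusted p = 0.444). With compression replicates 2 and 3 summed, that of Krt17 was 0.97 (edgeR adjusted p = 0.656). Compression replicate 1 was the lowest of its group for both genes.

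Krt5 was counted 0, 3, 5 and 5 times under compression, against 0, 0, 1 and 0 times in controls. With 13 counts against 1, the ratio was 11.9 (95% counting interval 1.78 to 504), which rests on a single control read. Krt14 was counted 7, 6, 4 and 5 times under compression, against 3, 2, 6 and 4 times in controls, a ratio of 1.34 (0.664 to 2.77). Both genes remained far below Krt15, which had 11.1, 10.3, 8.65 and 6.77 CPM under compression, against 9.72, 12.7, 10.6 and 5.75 CPM in controls. The log2 fold change of Krt15 was -0.09 (95% interval -0.56 to 0.38, edgeR adjusted p = 0.885), with groups that overlapped.

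The other simple keratins did not pass. Krt8 had 151, 172, 167 and 169 CPM under compression, against 171, 161, 142 and 146 CPM in controls, and Krt18 had 143, 171, 169.6 and 163 CPM, against 166, 147, 139.8 and 147 CPM. Their log2 fold changes were 0.09 (95% interval -0.07 to 0.24, edgeR adjusted p = 0.621) and 0.11 (95% interval -0.06 to 0.28, edgeR adjusted p = 0.554). For both, compression replicate 1 was lowest in its group and control replicate 1 highest. Krt7 had 99.3, 113, 115 and 117 CPM under compression, against 114, 138, 101 and 102 CPM in controls, a log2 fold change of -0.04 (95% interval -0.24 to 0.16, edgeR adjusted p = 0.887). These intervals bound a change of the 3 genes to at most 0.28 on the log2 scale in either direction. Ngfr had 13.5, 11.8, 10.5 and 10.4 CPM under compression, against 8.85, 7.65, 8.46 and 14.05 CPM in controls, a log2 fold change of 0.26 (95% interval -0.26 to 0.78, edgeR adjusted p = 0.655). Control replicate 4, the library with the liver genes, was the highest of all for Ngfr, and without it the log2 fold change was 0.48 (edgeR adjusted p = 0.343).

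**Figure D4:**
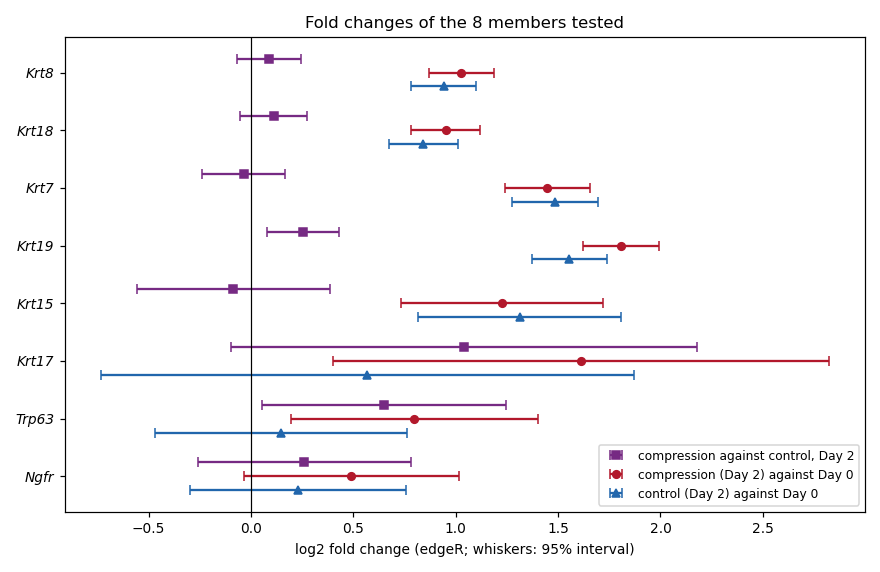
Log2 fold changes with 95% intervals from the edgeR fit for the 8 tested genes in compression against control, compression against Day 0 and control against Day 0. In compression against control the estimates lie between -0.09 for Krt15 and 1.04 for Krt17 and none passed after adjustment, whereas Krt7, Krt8, Krt15, Krt18 and Krt19 lie at 0.84 or above in both comparisons with Day 0.

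Compressed lungs against Day 0 lungs show what the genes did over 2 days when growth was restricted. This comparison shares its Day 0 libraries with the control comparison above, so the 2 sets of values are not independent. Of the 8 tested genes, 7 rose and 0 fell, whereas 49.1% of all genes passed, 26.6% rising and 22.5% falling. The 5 whose compressed and Day 0 levels did not overlap were Krt7, Krt8, Krt15, Krt18 and Krt19, and 23.5% of all genes had this pattern in the same direction. Krt19 had a log2 fold change of 1.81 (SE 0.09, edgeR adjusted p = 1.83e-08), beside 1.55 in controls. Krt7 followed at 1.45, Krt15 at 1.23, Krt8 at 1.03 and Krt18 at 0.95, beside 1.48, 1.31, 0.94 and 0.84 in controls (edgeR adjusted p at most 6.55e-04).

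Trp63 and Krt17 passed edgeR's test in this comparison alone, which does not show that they differ between compression and control. Trp63, at 2.81 to 4.70 CPM under compression against 1.03 to 2.91 CPM at Day 0, rose by a log2 fold change of 0.80 (95% interval 0.19 to 1.40, edgeR adjusted p = 0.0300). Krt17, at 0.304 to 1.26 CPM under compression against 0.0428 to 0.550 CPM at Day 0, rose by 1.61 (95% interval 0.40 to 2.82, edgeR adjusted p = 0.0293). In both genes the groups overlapped, and both calls were lost when compression replicates 2 and 3 were summed, with log2 fold changes of 0.68 for Trp63 (edgeR adjusted p = 0.0910) and 1.52 for Krt17 (edgeR adjusted p = 0.0638). Relative to the 5 epithelial genes, Trp63 was higher by 0.22 (two-sided exact permutation p = 0.600, adjusted 0.686). Ngfr, at 10.4 to 13.5 CPM under compression against 5.90 to 13.2 CPM at Day 0, had a log2 fold change of 0.49 (95% interval -0.03 to 1.01, edgeR adjusted p = 0.112). Krt5 and Krt14, with 13 and 22 counts under compression against 4 and 27 at Day 0, had ratios of 2.61 (95% counting interval 0.806 to 10.98) and 0.654 (0.355 to 1.19).

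Leaving out 1 library changed the calls of Trp63 and Krt17 in compression against Day 0. Without Day 0 replicate 1, where both genes were lowest, the log2 fold change of Trp63 was 0.53 (edgeR adjusted p = 0.0702) and that of Krt17 was 1.22 (edgeR adjusted p = 0.0757). Trp63 also missed the threshold without compression replicate 2 (edgeR adjusted p = 0.0952), compression replicate 3 (edgeR adjusted p = 0.0973) or Day 0 replicate 3 (edgeR adjusted p = 0.0522). Krt17 also missed it without compression replicate 2 (edgeR adjusted p = 0.0645), compression replicate 3 (edgeR adjusted p = 0.0777), compression replicate 4 (edgeR adjusted p = 0.0739) or Day 0 replicate 2 (edgeR adjusted p = 0.0690). Ngfr passed without Day 0 replicate 3, its highest Day 0 library, with a log2 fold change of 0.79 (edgeR adjusted p = 0.00652).

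The likeness of 2 genes was measured as the root mean square difference of their centred log2 CPM over the 12 libraries, where 0 is an identical pattern. Krt18 was the gene second most like Krt8 of all genes tested (0.0812), after Cltb (0.0739) and before Tmem106c (0.0823). The genes most like Trp63 were Dusp23 (0.230), Sgk1 (0.250) and Tmem59l (0.276). Those most like Krt15 were Katnal2 (0.254), Faah (0.256) and Tmem79 (0.264). Sparse genes carry more counting noise, so the distances of Trp63 and Krt15 cannot be set against those of Krt8.

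Genes around the basal programme give the setting of these values. Of 18 genes of the basal cell surface and its basement membrane, 8 rose and 1 fell in controls against Day 0, with a median log2 fold change of 0.34 beside 0.02 over all genes tested. Over all genes 40.2% passed in this comparison, 22.6% rising and 17.6% falling, and this is the background for the count of 9 of 18 and for the lists that follow. The laminin receptor gene Bcam rose by 1.52 (edgeR adjusted p = 2.38e-06), the laminin gene Lamb3 by 1.38 (edgeR adjusted p = 7.57e-06), the junction gene Perp, a known p63 target, by 1.61 (edgeR adjusted p = 1.16e-05) and the water channel gene Aqp3 by 2.17 (edgeR adjusted p = 8.17e-05). The gene that fell, named after its value was seen, was the transcription factor gene Snai2. These genes are expressed by other epithelial cells as well. Of 12 genes of the p53 family and its known targets or partners, 5 rose and 3 fell, with a median of -0.026. Trp73, the relative of Trp63 that multiciliated cells express, averaged 6.02 ± 2.64 CPM in controls and 0.107 ± 0.0512 CPM at Day 0 (SD, n = 4 each), a log2 fold change of 5.74 (edgeR adjusted p = 1.51e-06). Satb1, which encodes a chromatin organiser, fell by 0.69 on the log2 scale (edgeR adjusted p = 3.89e-06).

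Filaments end at desmosomes, and 10 of the 12 tested desmosome genes rose in controls against Day 0 while 0 fell, with a median of 0.70. Among them were Ppl, which encodes the cytolinker periplakin and rose by 1.66 (edgeR adjusted p = 1.11e-06), and the desmosomal cadherin genes Dsc3, at 1.67 (edgeR adjusted p = 5.66e-05), and Dsg2, at 0.62 (edgeR adjusted p = 1.72e-05). Of 10 tested genes of other intermediate filaments, 3 rose and 5 fell, with a median of -0.19. Vim, the mesenchymal filament gene, fell by 0.83 on the log2 scale (edgeR adjusted p = 2.45e-05), while the neuronal filament gene Prph rose by 1.57 (edgeR adjusted p = 6.84e-06). Of 20 other keratins in the table, 7 could be tested and 3 rose: Krt4, at 1.06 ± 0.321 CPM in controls and 0.0529 ± 0.0621 CPM at Day 0 (SD, n = 4 each), Krt79 and Krt80. For Krt79 and Krt80 the log2 fold changes were 2.75 (edgeR adjusted p = 0.00101) and 1.42 (edgeR adjusted p = 6.23e-04). Krt2, Krt6a, Krt6b and Krt27 had 0 counts in all libraries. Of 13 genes of the neurotrophins and their receptors, the ligands and partners of Ngfr, 4 rose and 1 fell, close to the share of all genes that passed (40.2%) and with a median of -0.034. Those that rose included the ligand gene Ntf5 at 1.11 (edgeR adjusted p = 1.31e-04) and the Ngfr co-receptor gene Sort1 at 0.52 (edgeR adjusted p = 5.60e-04).

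In compression against control, 0 genes of these lists passed edgeR's test, as for all genes. The values nearest to it were those of Krt20, an intestinal and urothelial keratin, at -1.80 (edgeR adjusted p = 0.309), of Ntf5 at 0.54 (edgeR adjusted p = 0.309) and of the progenitor filament gene Nes at -0.32 (edgeR adjusted p = 0.293), each with groups that did not overlap. Krt20 averaged 0.146 ± 0.0272 CPM under compression and 0.556 ± 0.313 CPM in controls (SD, n = 4 each). These levels rest on only 17 and 52 counts summed over each group. Of the 7 other keratins tested, 3 had positive values, among them Krt23 at 0.80 (edgeR adjusted p = 0.385) and Krt1 at 0.81 (edgeR adjusted p = 0.396), with overlap. Ntf5 averaged 6.02 ± 0.566 CPM under compression and 4.14 ± 0.554 CPM in controls (SD, n = 4 each). Perp was at 0.51 (edgeR adjusted p = 0.337) and Aqp3 at 0.67 (edgeR adjusted p = 0.376), with groups that overlapped.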

How the data were processed

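RNA of 12 whole-lung explant libraries, 4 per group, was sequenced in bulk, with groups and replicate numbers taken from the labels. The authors deposited raw read counts per gene symbol. Per the submitters' processing notes, fastp, STAR and the mm10 build were used. The sources used here do not give versions, the counting step, the strand setting or the handling of reads with several matches, so reads of near-identical keratins, and of genes overlapping on opposite strands, cannot be told apart.

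The tests were run with edgeR 4.0.16 under R 4.3.3. filterByExpr (minimum count 10, minimum total 15) kept 15246 genes. All 12 libraries entered 1 robust quasi-likelihood fit with TMM scaling and the group as the only term, tested with glmQLFTest, and Benjamini-Hochberg adjustment covered every gene tested, with a threshold of 0.05. The fit was checked on simulated counts. Levels are CPM. Likeness and levels relative to epithelial genes used log2 CPM with a prior count of 2, and the relative levels were compared by an exact permutation test over libraries. Ratios of sparse genes have exact 95% intervals. Transcript lengths and coordinates came from GENCODE on GRCm38, and promoters from RefSeq. Genes named outside the set were taken from the lists by smallest p in each comparison.

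Alternatives were RLE scaling, library totals, no filter, DESeq2 1.42.0, limma 3.58.1 (voom with quality weights), fits of the 8 libraries compared, a replicate block, compression replicates 2 and 3 summed, Epcam alone as the epithelial comparator, a prior count of 0.5 for the relative levels, and leaving out each library. The genes and lists were chosen with earlier results of these data known.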

Additional observations from a re-analysis of the deposited data

How the results depend on the processing

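The count of genes of the set that passed edgeR's test was 0 in compression against control and 5 in control against Day 0 under every edgeR and DESeq2 setting tried. limma-voom with quality weights called 4 in compression against control (Krt8, Krt18, Krt19 and Trp63), and all genes called there numbered 1958 with voom, 69 with DESeq2, 4 with only the 8 libraries and 0 to 53 when 1 library was left out, against 0 in the fit reported; the cause was not tested. In compression against Day 0 the count of the set was 5 to 7 when 1 library was left out, and Krt17 missed the threshold with only the 8 libraries (log2 fold change 1.60, edgeR adjusted p = 0.0511). Direction changed for values near 0 that had not passed: Krt7 in compression against control was 0.045 with voom and -0.083 to 0.072 when 1 library was left out, and Krt15 there was -0.25 to 0.073. In control against Day 0, Trp63 was -0.12 to 0.31 and Ngfr -0.0019 to 0.54. Relative to the epithelial genes, leaving out 1 library gave -0.091 to 0.044 for Krt7 and -0.28 to 0.083 for Krt15 in compression against control, -0.050 to 0.68 for Krt17 in control against Day 0, and -0.064 to 0.33 for Trp63 and -0.20 to 0.14 for Ngfr in compression against Day 0, where Epcam alone gave 0.056 for Ngfr. Same-numbered libraries did not deviate together (12 correlations, -0.18 to 0.17, 4 of them over 0.1, and 4 of 12 libraries correlated best with their own number). With the number as a replicate block the counts for the set were 0, 5 and 7 in compression against control, control against Day 0 and compression against Day 0, as without it. Depth limits Krt5, Krt14 and Krt17 most: 0 counts over a group still allow 3.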
